A study of Bos taurus with 6 samples.

Results

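Sperm swim and fertilise under the control of a small set of ion channels and transporters that sit in the membrane of the flagellum. The CatSper channel is the sperm calcium channel: its pore is built from the products of CATSPER1, CATSPER2, CATSPER3 and CATSPER4, and auxiliary subunits such as those of CATSPERB, CATSPERD and CATSPERG surround it. Calcium that enters through it drives the vigorous tail beat known as hyperactivation. SLC9C1 encodes the sperm sodium/proton exchanger, KCNU1 encodes SLO3, the potassium channel that sets the sperm membrane potential, and HVCN1 encodes a voltage-gated proton channel that is also known from white blood cells. Apart from HVCN1, these genes are known mainly from the late, haploid stages of spermatogenesis, which a calf testis has not yet reached.

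These 10 genes were taken by their symbols from a table of 47249 genes, and each symbol had 1 entry there. The table gives FPKM, the fragments mapped to a gene scaled to its length in kilobases and to the size of the library, in total RNA depleted of ribosomal RNA from the testes of cattle (Bos taurus). There was 1 library for each of 6 untreated animals: 3 immature calves, which were 3 months old, and 3 mature bulls, which were 3 years old. Because each library is another animal, a p-value measures the spread between animals. No counts accompany the FPKM values, so the depth behind each value is unknown and no counting interval could be given. Since the samples are bulk tissue, a lower level can mean fewer cells of a type or less RNA per cell, and these cannot be told apart.

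The library labelled calf 3 stood apart from the other calf libraries. Its FPKM summed over 5 oligodendrocyte marker genes was 12343, compared with 3.35 and 4.17 in calves 1 and 2, and the sum over 6 Leydig cell genes, INSL3 and STAR among them, was 0.502, compared with 1389 and 1087. The Sertoli cell genes FSHR, WT1 and GATA4 and the germ cell gene DAZL were at 0 in it, but other genes of these lists were not low. The Sertoli cell sum in calf 3 was 449, above the 194 to 231 of the bulls. Of 7 spermatogonial genes, ZBTB16 (17.2), UCHL1 (201) and GFRA1 (6.38) were highest in calf 3. The sum over 5 astrocyte and neuron genes was 1582 in calf 3, compared with 14.1 and 8.59 in calves 1 and 2. It was 4.35 to 4.91 in the bulls. The oligodendrocyte, astrocyte and neuron, and Leydig cell sums and the genes at 0 went against a testis label. Each comparison was therefore made with all 6 libraries and again without calf 3. In calves 1 and 2, the Sertoli cell sum over 9 genes was 1797 and 1493, and the sums of both round and elongating spermatid markers were far below those of the bulls. The sum over 10 elongating spermatid genes was 14.5 and 15.8 in calves 1 and 2, 11.4 in calf 3, and 14927 to 16526 in the bulls. The sum over 9 round spermatid genes was 5.78 and 6.51 in calves 1 and 2, 3.41 in calf 3, and 770.3 to 823.6 in the bulls.

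A gene entered the test if no fewer than 3 libraries had an FPKM of 1 or more, which left 18115 genes. Bulls and calves were compared with limma on log2(FPKM + 1), and a gene was called when its p-value, adjusted by the Benjamini-Hochberg method over the 18115 genes, was below 0.05 and its log2 fold change, bull minus calf, was at least 1 in size. The 10 members all passed the filter. However, CATSPER1, CATSPER3, CATSPER4, SLC9C1 and KCNU1 passed it only because the bulls were above 1, so these 5 had to differ between the groups. Of the 10, 8 were called higher in bulls (35.7% of all genes tested were), none was called lower (9.61% of all genes were), and CATSPERD and HVCN1 were not called. Without calf 3 the count was again 8 higher and 0 lower, beside 37.9% and 13.6% of all genes. Every bull was above every calf in 9 of the 10 members, as in 46.1% of all genes, and every bull was below every calf in HVCN1, as in 21.3% of all genes. The median log2 fold change of the members was 2.45, beside 0.43 over all genes tested.

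**Figure D1:**
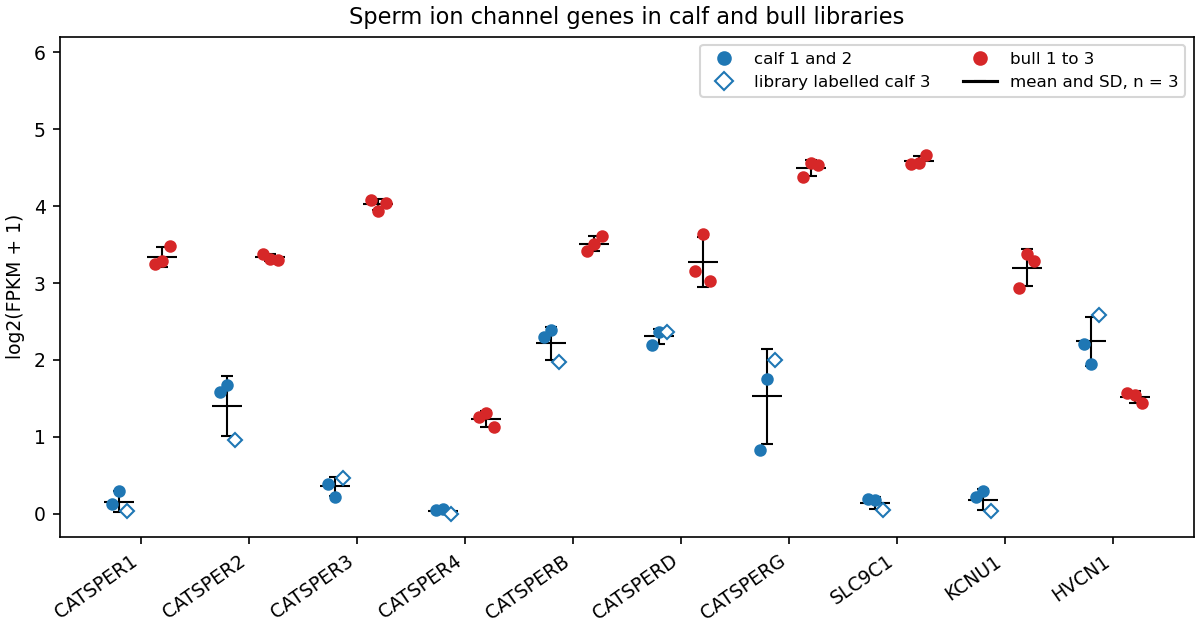
Level of the 10 members in the 6 libraries, as log2(FPKM + 1) on a linear axis. Points are libraries (blue, calves; open diamond, the library labelled calf 3; red, bulls) and bars are the mean and SD of 3 libraries. Bulls lie above calves for 9 genes and below them for HVCN1, and CATSPERB, CATSPERD and HVCN1 have the highest calf means.

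The 4 pore subunits were all called higher in bulls, but they differed in how far the calves were from 0 and in how high the bulls rose. CATSPER1 (ENSBTAG00000014720, chr29:44104901-44113611) had an FPKM of 0.0978, 0.231 and 0.0230 in calves 1 to 3 and 8.46, 8.75 and 10.2 in bulls 1 to 3. CATSPER3 (ENSBTAG00000014746, chr7:46424173-46455511) had 0.307, 0.167 and 0.382 in the calves and 15.9, 14.4 and 15.5 in the bulls. Both genes were thus below 1 in each calf and tightly grouped in the bulls, with calf 3 the lowest calf for CATSPER1 and the highest for CATSPER3. The log2 fold change was 3.18 (SE 0.16, adjusted p = 2.69e-05, limma, 3 bulls against 3 calves) for CATSPER1 and 3.66 (SE 0.16, adjusted p = 1.65e-05) for CATSPER3. Without calf 3 these values were 3.12 and 3.72.

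CATSPER4 (ENSBTAG00000026638, chr2:126896197-126910286) was the lowest member in the bulls. Its FPKM was 0.0341, 0.0479 and 0 in the calves and 1.40, 1.49 and 1.18 in the bulls, so the groups did not overlap, but the bulls were little above the filter. On the log2 scale the difference was 1.19 (SE 0.09, adjusted p = 0.000126, limma), and 1.18 without calf 3. With 0.1 in place of 1 added to FPKM, it was 3.53. The call was lost when the libraries were brought to the same distribution by quantile normalization (log2 fold change 0.10, adjusted p = 0.419).

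CATSPER2 (ENSBTAG00000032130, chr21:55352680-55392386) already had a level above 1 in calves 1 and 2. Its FPKM was 1.99, 2.20 and 0.947 in the calves and 9.43, 8.96 and 8.84 in the bulls, a log2 fold change of 1.93 (SE 0.24, adjusted p = 0.000844, limma) and of 1.70 without calf 3. Much of this level was assigned to entries other than the Ensembl transcript of CATSPER2. The table of transcripts, which lists Ensembl transcripts (those of the reference annotation) beside transcripts assembled from the reads, divides the gene into 7 entries, and only CATSPER2-201 is an Ensembl transcript. That entry had an FPKM of 0.109, 0.205 and 0.0740 in the calves and 3.01, 2.79 and 2.49 in the bulls, which was 5.45% to 9.30% of the gene's FPKM in calves and 28.2% to 31.9% in bulls. The 6 assembled entries began within CATSPER2-201 and lay partly in PDIA3, a gene of protein folding in the endoplasmic reticulum, which overlaps one end of CATSPER2. Of these, 5 extended beyond CATSPER2-201 into PDIA3 and summed to 1.08, 1.61 and 0.873 in the calves and 5.90, 5.57 and 5.87 in the bulls. The other entry, CATSPER2-OT1, ended at the same base as CATSPER2-201 and had 0.803, 0.388 and 0 in the calves and 0.520, 0.600 and 0.476 in the bulls. PDIA3 itself had an FPKM of 64.1 to 182 in calves and 116 to 128 in bulls. Therefore the larger part of the calf level of CATSPER2 was in entries that extend into PDIA3, and the Ensembl transcript was at most 0.205 in each calf. On the Ensembl entry, the log2 fold change was 1.74 (SE 0.13, adjusted p = 0.000110, limma over 23212 transcript entries). This is not a smaller relative change than that of the gene, because the 1 added to FPKM shrinks changes of low levels. The mean FPKM was 0.129 in calves and 2.77 in bulls for the entry, and 1.71 and 9.08 for the gene.

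In the bulls, the levels of the pore subunits were unequal. CATSPER3 was above CATSPER1 in each bull, by 1.68 ± 0.183 times (SD, n = 3), and above CATSPER4 by 11.4 ± 1.72 times. CATSPER1 and CATSPER2 did not differ beyond the spread at the level of the gene (ratio 1.01 ± 0.128, with CATSPER1 higher in 1 of 3 bulls). When CATSPER2 was reduced to the entry that covers its Ensembl transcript, CATSPER1 was above it in each bull, by 3.34 ± 0.656 times, and CATSPER2 was above CATSPER4 by 2.05 ± 0.148 times. Since FPKM is scaled to length, these are ratios of level per length of transcript.

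Of the auxiliary subunits, CATSPERG (ENSBTAG00000000621, chr18:48153486-48177891), for the gamma subunit, had an FPKM of 0.783, 2.36 and 3.00 in the calves and 19.8, 22.6 and 22.2 in the bulls. The calves were spread widely, with calf 3 the highest, and each bull was above each of them. This was a log2 fold change of 2.96 (SE 0.33, adjusted p = 0.000524, limma), and 3.20 without calf 3. A single Ensembl transcript carried the whole level of CATSPERG, as it did for CATSPER3, CATSPER4 and KCNU1.

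CATSPERD (ENSBTAG00000001796, chr7:18552769-18589512), for the delta subunit, had the widest spread between bulls of the members. Its FPKM was 3.58, 4.13 and 4.15 in the calves and 7.95, 11.4 and 7.13 in the bulls, where the coefficient of variation was 25.7%, beside 3.41% to 17.7% in the other members that were higher in bulls. The groups did not overlap, and calf 3, in which spermatid markers were far below the bulls and DAZL was at 0, was at the level of calf 2. The log2 fold change was 0.97 (95% interval 0.44 to 1.49, adjusted p = 0.0101, limma), just under the size that a call required, and it was 0.99 without calf 3. Without bull 2 the difference was smaller but kept its direction (0.79, adjusted p = 0.0313), and without bull 1 or bull 3 it was 1.02 and 1.09 and CATSPERD was called. Its main transcript, CATSPERD-201, was called higher in bulls (log2 fold change 1.02, adjusted p = 0.0118).

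CATSPERB (ENSBTAG00000018709, chr21:56245608-56531661), for the beta subunit, had an FPKM of 3.90, 4.22 and 2.92 in the calves and 9.65, 10.4 and 11.2 in the bulls. The log2 fold change of the gene was 1.29 (SE 0.18, adjusted p = 0.00151, limma), and 1.17 without calf 3. Under quantile normalization it was 0.77 (adjusted p = 0.00956), under the size for a call. The gene is made of 22 transcript entries, of which 21 were assembled. The entries that cover its Ensembl transcript differed far more between calves and bulls than the gene did, and far more than the other kinds.

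Of the CATSPERB entries, 7 cover its Ensembl transcript, carry no antisense name and do not extend into another gene. Their summed FPKM was 0.000697, 0.00533 and 0 in the calves and 3.16, 2.95 and 3.08 in the bulls. They made up at most 0.126% of the gene's FPKM in calves and 27.5% to 32.8% in bulls. The Ensembl transcript CATSPERB-201 itself was at 0 in each calf and at 0.00737 to 0.0189 in the bulls, since the assembled entry TCONS_00190900, which starts and ends somewhat further out, took the larger part (1.71, 1.68 and 2.20 in bulls 1 to 3). On the sum of the covering entries, the log2 fold change of CATSPERB was 2.02 (SE 0.10, adjusted p = 2.38e-05, limma), and also 2.02 without calf 3. This replacement was chosen after the data were seen.

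The calf level of CATSPERB thus came from entries of other kinds. Partial entries, 9 in number, summed to 1.53, 1.37 and 1.52 in the calves and 2.36, 2.40 and 2.50 in the bulls, and 5 of them touch only 1.08% of the interval of the Ensembl transcript. The 3 entries with antisense names summed to 1.15, 1.36 and 1.37 in the calves and 1.69, 1.07 and 2.30 in the bulls, so that the groups overlapped. The 3 entries that extend into the neighbouring gene TC2N summed to 1.22, 1.48 and 0.0304 in the calves and 2.44, 3.98 and 3.30 in the bulls. TC2N had an FPKM of 8.94, 5.69 and 0 in the calves and 12.5, 19.7 and 11.0 in the bulls, so both TC2N and the entries that reach it were near 0 in calf 3. Among these entries the assignment changed from library to library: TCONS_00190909 had 3.98 in bull 2, 0.0649 in bull 1 and 0.0800 in bull 3, while TCONS_00190906 and TCONS_00190907 were at 0 in bull 2 and between 1.07 and 1.69 in bulls 1 and 3.

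**Figure D2:**
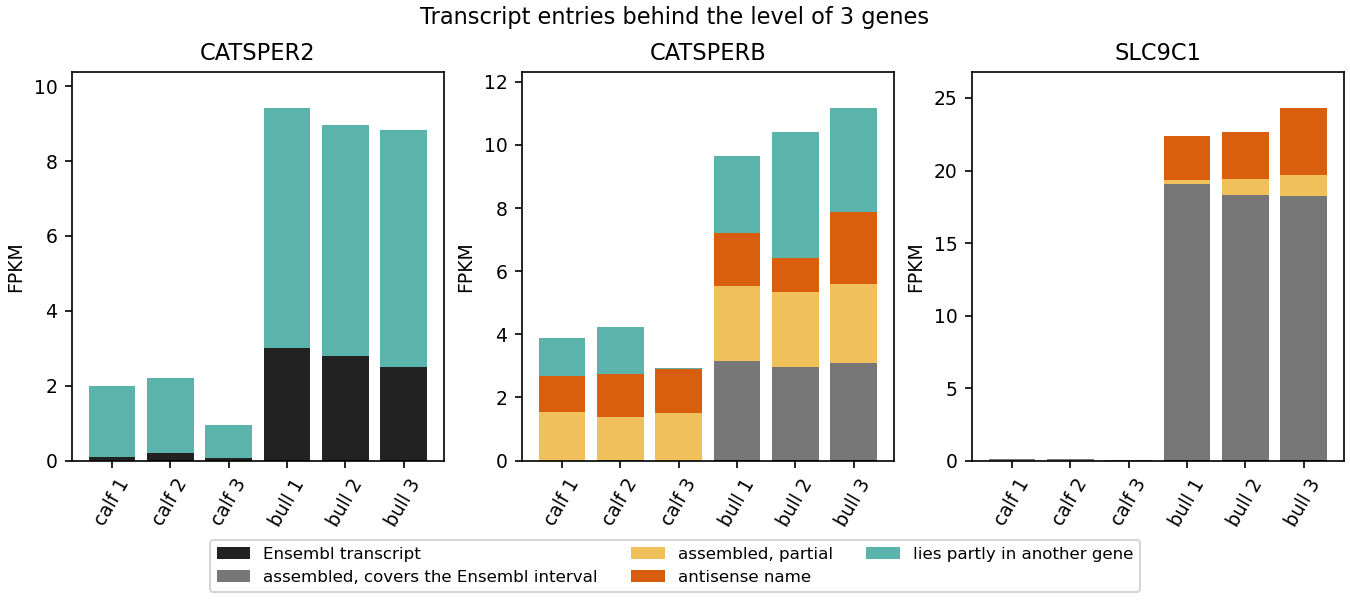
Stacked bars of FPKM per library for CATSPER2, CATSPERB and SLC9C1, divided by the kind of transcript entry (each panel has its own linear axis from 0). The black and grey parts, which cover the Ensembl transcript, are near 0 in calves for all 3 genes, and the calf levels of CATSPER2 and CATSPERB are made mainly of entries that lie partly in another gene, partial entries and entries with antisense names.

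SLC9C1 (ENSBTAG00000019332, chr1:56951731-57088341) had the highest log2 fold change of the members and, on whole gene rows, the highest bull mean. Its FPKM was 0.142, 0.134 and 0.0352 in the calves and 22.4, 22.6 and 24.3 in the bulls. Each calf was far below each bull, and the coefficient of variation of the bulls was 4.57%. Bulls and calves differed by a log2 fold change of 4.45 (SE 0.16, adjusted p = 7.87e-06, limma), and 4.41 without calf 3. The Ensembl transcript SLC9C1-201 was at 0 in the calves and at no more than 0.0714 in the bulls. In its place, 3 assembled entries that cover it and extend beyond both of its ends carried 19.0, 18.3 and 18.2 in the bulls.

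The division of SLC9C1 among those 3 entries was not stable between bulls, although their sum was. TCONS_00013318 had an FPKM of 17.3, 7.28 and 14.2 in bulls 1 to 3, and TCONS_00013316, which shares its start and ends 3 bases before it, had 0.973, 10.4 and 1.78. Bull 2 therefore differed from the other bulls in the split and not in the sum. A further 8 entries of SLC9C1 carry antisense names and summed to 0.0192, 0.00715 and 0 in the calves and 3.04, 3.24 and 4.68 in the bulls. One of them, SLC9C1-AS4, was called higher in bulls, with a log2 fold change of 1.44 (adjusted p = 0.000162, limma over transcript entries). The library kit marks strand according to the labels, but whether the counting used it is not given in the sources used here, so reads of SLC9C1 and of its antisense entries may not have been told apart.

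KCNU1 (ENSBTAG00000027118, chr27:32136982-32281530) had an FPKM of 0.165, 0.230 and 0.0247 in the calves and 6.62, 9.42 and 8.78 in the bulls. All bulls were above all calves, with a log2 fold change of 3.02 (SE 0.19, adjusted p = 5.41e-05, limma), and 2.94 without calf 3. LRRC52, which encodes the auxiliary subunit that pairs with SLO3 in sperm, was at most 0.0222 in the calves and 2.60, 8.26 and 4.26 in bulls 1 to 3. Bull 1 was the lowest and bull 2 the highest for both genes, but LRRC52 varied more, and its ratio to KCNU1 was 0.392, 0.877 and 0.485 in bulls 1 to 3. KCNMA1, which encodes SLO1, the relative of SLO3 in muscle and nerve, behaved differently: it was 0.303, 1.36 and 20.7 in the calves and 4.76, 7.62 and 7.11 in the bulls. Its log2 fold change was 0.86 (adjusted p = 0.509, limma) with all libraries and 2.07 (adjusted p = 0.00115) without calf 3, where it was called.

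HVCN1 (ENSBTAG00000009216, chr17:54505222-54531025) was the only member that was lower in each bull than in each calf. Its FPKM was 3.63, 2.84 and 4.98 in the calves and 1.98, 1.92 and 1.70 in the bulls, with the highest value in calf 3. The log2 fold change was −0.73 (95% interval −1.24 to −0.21, adjusted p = 0.0272, limma), below the size for a call, and −0.56 (adjusted p = 0.0157) without calf 3. The direction was the same for its Ensembl transcript HVCN1-201 (log2 fold change −0.55, adjusted p = 0.0455). After quantile normalization the value was −1.54 (adjusted p = 0.00160) and HVCN1 was called lower.

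Markers of white blood cells, a known site of HVCN1, also differed between the libraries. PTPRC, the pan-leukocyte gene, was 20.0, 17.8 and 3.78 in the calves and 3.30, 3.42 and 2.77 in the bulls. The sum over 7 lymphoid genes, PTPRC among them, was 34.4, 28.6 and 6.41 in the calves and 12.1 to 14.8 in the bulls. CD79B was at 0 in calves 1 and 2 and bull 2. Every bull was above every calf in 3 of the 7 genes and below every calf in 1, beside 46.1% and 21.3% of all genes tested. In calf 3 the microglial genes P2RY12 and CX3CR1 were at 19.0 and 15.4, compared with at most 1.78 in the other libraries. The sum over 11 macrophage and microglia genes was 121 in calf 3, the lowest of the 6 libraries (167 to 248 in the others). Of these 11 genes, every bull was above every calf in 3 and below every calf in 4, beside 46.1% and 21.3% of all genes tested. The sum over 6 granulocyte genes was 1.28 to 6.05 in the calves and 3.65 to 12.6 in the bulls. The part of these cells in the HVCN1 difference was not tested.

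**Figure D3:**
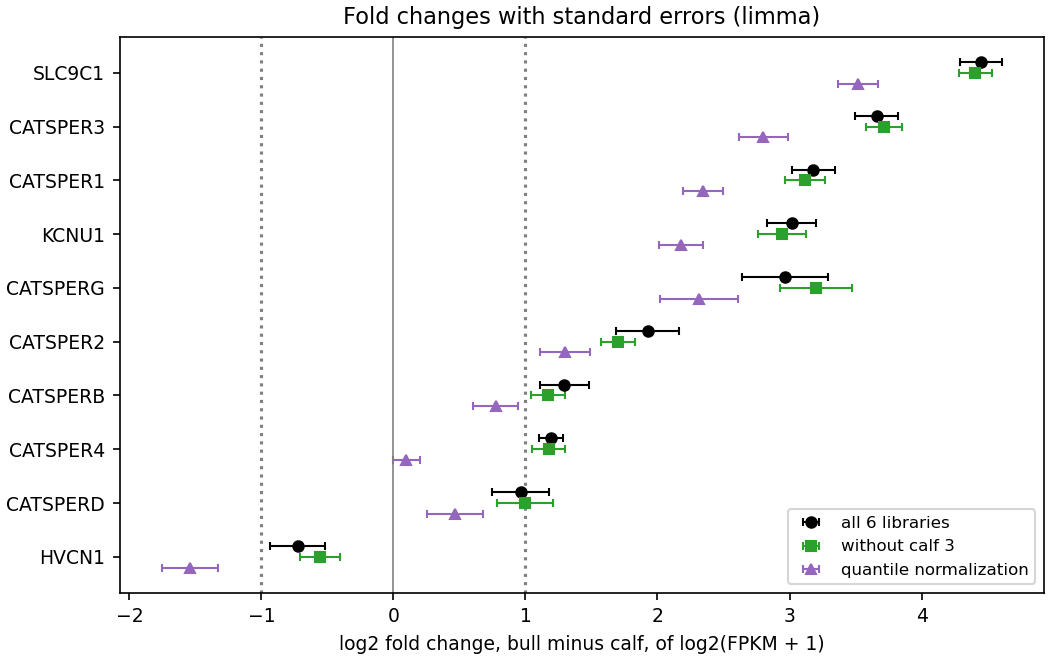
Log2 fold change (bull minus calf) of each member with its standard error, from limma on log2(FPKM + 1), with all 6 libraries (black circles), without calf 3 (green squares) and after quantile normalization (purple triangles). Dotted lines mark a log2 fold change of 1 in size. Leaving out calf 3 moved no member across the lines, whereas quantile normalization lowered every value, took CATSPER4 and CATSPERB below the line and took HVCN1 beyond it.

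In order of their mean bull FPKM, the members were SLC9C1 (23.1), CATSPERG (21.6), CATSPER3 (15.3), CATSPERB (10.4), CATSPER1 (9.12), CATSPER2 (9.08), CATSPERD (8.83), KCNU1 (8.28), HVCN1 (1.87) and CATSPER4 (1.35). The steps from CATSPERG to CATSPER3, from CATSPER3 to CATSPERB, from KCNU1 to HVCN1 and from HVCN1 to CATSPER4 were larger than the spread, with no overlap between the bulls. Neighbours between CATSPERB and KCNU1 overlapped, as did SLC9C1 and CATSPERG, although SLC9C1 was above CATSPERG within each bull. The order changed when each gene was reduced to the entries that cover its Ensembl transcript. CATSPERG (21.6) was then above SLC9C1 (18.5) in each bull, with no overlap, and CATSPERB fell to 3.06 and CATSPER2 to 2.77, both below KCNU1 without overlap. In the calves the order was different, with CATSPERD (mean 3.96), HVCN1 (3.82), CATSPERB (3.68), CATSPERG (2.05) and CATSPER2 (1.71) above the others, of which the highest mean was 0.285 in CATSPER3. Without calf 3, CATSPERB (4.06) was first, with a range that overlapped that of CATSPERD (3.86), and CATSPER2 (2.10) was above CATSPERG (1.57), again with overlap. On the covering entries, HVCN1 (3.82), CATSPERD (3.78) and CATSPERG (2.05) were above the others, CATSPER2 (0.129) was below CATSPER3, and CATSPERB (0.00201) was the lowest member.

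Of the 55 transcript entries of the 10 genes, 15 passed the filter, 12 of these were called higher in bulls and 0 lower. However, 10 of the 12 were below 1 in each calf and passed only through the bulls, so they had to differ; the other two were CATSPERG-201 and CATSPERD-201. Among all 23212 transcript entries tested, 34.8% were called higher, and without calf 3 the same number of member entries, 12, was called beside 36.1% of all. The 12 entries belonged to 9 genes, all members except HVCN1. The 3 entries that were not called were HVCN1-201, TCONS_00190842 of CATSPER2 and TCONS_00190907 of CATSPERB. TCONS_00190842, which reaches into PDIA3, was 1.08, 1.60 and 0.873 in the calves and 0.337, 0.465 and 1.31 in the bulls, whereas TCONS_00190839 of the same locus was at 0 in each calf and 4.77, 4.43 and 2.76 in the bulls.

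Further proteins are known to bind or act on the CatSper channel, and 5 of 8 such genes were found by symbol. EFCAB9 (a calcium sensor of the channel), C2CD6, TMEM249, TMEM262 and ABHD2 (the lipid hydrolase through which progesterone acts on the channel) were all called higher in bulls, 5 of 5, with and without calf 3 (35.7% and 37.9% of all genes were). Of these, EFCAB9, TMEM249 and TMEM262 were below 1 in each calf and passed the filter only through the bulls, so they had to differ. EFCAB9 was at 0, 0.0420 and 0 in the calves and 30.4, 46.1 and 43.4 in the bulls (log2 fold change 5.32). TMEM262 was at most 0.257 in the calves and 62.9, 72.2 and 70.3 in the bulls (5.93), and C2CD6 was 0.205 to 1.01 in the calves and 51.2 to 63.8 in the bulls (5.16). These 3 genes were above every pore subunit within each bull, the highest of which, CATSPER3, was at 15.9, 14.4 and 15.5. EFCAB9 was at 4.38 ± 0.841 times and TMEM262 at 7.53 ± 0.671 times the level of CATSPER1, which was lower than CATSPER3.

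The other associates had less uniform values. TMEM249 was 0.0118 to 0.655 in the calves and 2.18 to 3.13 in the bulls, and its call (log2 fold change 1.53, adjusted p = 0.00165, limma) was lost under quantile normalization. ABHD2 was 5.90 and 6.61 in calves 1 and 2, 32.9 in calf 3, and 96.2 to 113 in the bulls, and its log2 fold change of 3.10 became 3.84 without calf 3. CATSPERE, CATSPERZ and SLCO6C1 were not matched by symbol and are not analysed here.

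Of 17 other genes of sperm ion transport and signalling, 16 were found, 10 passed the filter and 7 were called higher (35.7% of all genes were), with a median log2 fold change of 2.67 over the 10. All of the 7 except SLC26A6 were below 1 in each calf and passed only through the bulls, so these 6 had to differ. Without calf 3, 8 were called higher, KCNMA1 being the addition. Besides LRRC52, the 7 were ADCY10 (the bicarbonate-sensing adenylyl cyclase, log2 fold change 2.88), SLC9B1 (4.87), SLC26A6 (1.87), SLC26A8 (4.88), ATP1A4 (the sodium pump isoform of sperm, 4.92) and PLCZ1 (the sperm phospholipase that triggers egg activation, 5.61). ADCY10 was 0.0411, 0.0358 and 0.955 in the calves and 7.70, 9.31 and 8.37 in the bulls, or 0.366 ± 0.0388 times the level of SLC9C1, the exchanger it is known to work with. ATP1A4 was at most 0.0561 in the calves and 28.1 to 33.4 in the bulls.

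The 3 genes of this list that were tested and not called were KCNMA1, KCNK5 (log2 fold change 0.29, adjusted p = 0.522, limma) and ATP2B4, a plasma membrane calcium pump (7.03, 10.5 and 8.48 in the calves and 4.66, 4.82 and 5.57 in the bulls, log2 fold change −0.67, adjusted p = 0.0283). ATP2B4 resembled HVCN1 in that every bull was below every calf, and it was called lower only under quantile normalization among the normalizations tried. KCNJ11, SLC9B2, SLC26A3, CFTR, CA4 and TRPV4 were below the filter, and SLC9C2 was not matched by symbol.

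The voltage-gated calcium channels of other tissues and their relatives had fewer genes called higher than the members and the lists above. Of 13 genes, 11 were tested, with a median log2 fold change of −0.20. Of the 11, 1 was called higher (35.7% of all genes were), 1 lower (9.61% of all genes were) and 9 not. CACNA1S was called higher, with 0.445, 0.504 and 0.140 in the calves and 1.83, 4.04 and 3.45 in the bulls (log2 fold change 1.56). CACNA1G was called lower, with 1.85, 2.02 and 4.10 in the calves and 0.125, 0.165 and 0.280 in the bulls (−1.57). CACNA1S passed the filter only through the bulls and CACNA1G only through the calves, so both had to differ. Calf 3 held the highest value of 8 of the 13, for example NALCN (18.9, compared with 1.96 to 3.25 in the other libraries) and CACNA1I (5.07, compared with at most 0.170). Without calf 3, the calls became 3 higher (CACNA1B 1.37, CACNA1S 1.44 and TPCN1 1.03) and 1 lower (CACNA1G −1.30), with a median of 0.23. Of all genes, 37.9% were then called higher and 13.6% lower. Under quantile normalization the calls were 0 higher and 3 lower (CACNA1C −1.65, CACNA1D −1.11 and CACNA1G −1.98), and CACNA1S, which had passed the filter only through the bulls, lost its call (0.58, adjusted p = 0.106). Of all 18115 genes, 3827 were called higher and 4538 lower under that normalization. CACNA1H, which was among the higher of these channels, was 11.8, 15.5 and 7.74 in the calves and 7.67 to 11.6 in the bulls, where the groups overlapped. The difference between this list and the CatSper genes was not tested.

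**Figure D4:**
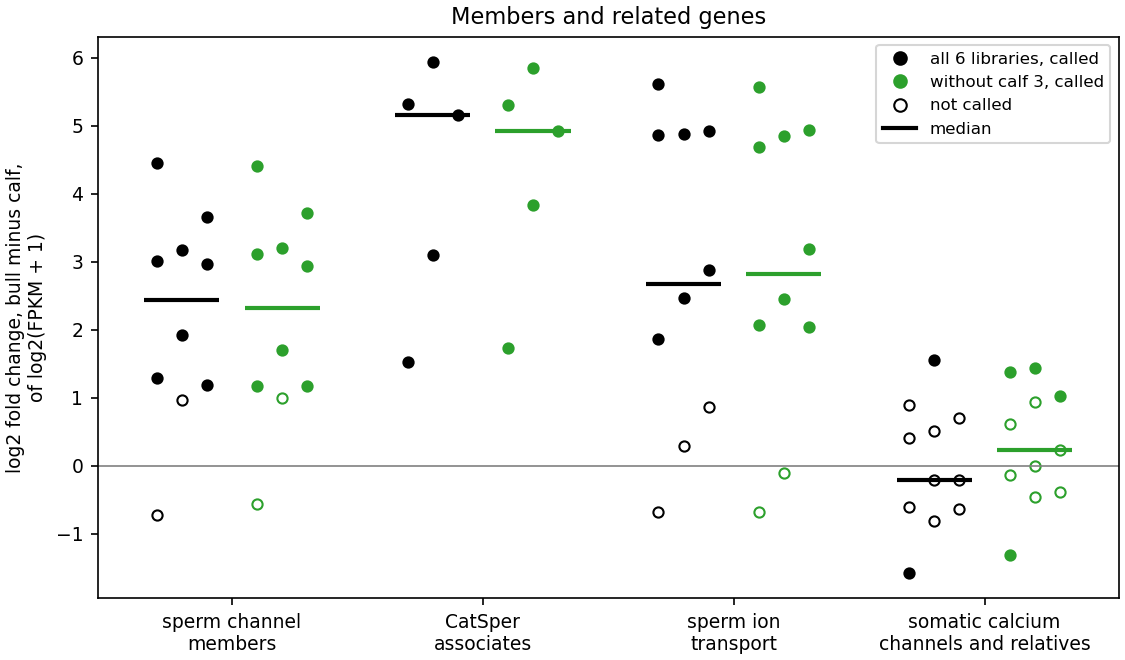
Log2 fold change (bull minus calf, limma on log2(FPKM + 1)) of the members that were tested and of the related genes in 3 lists, with all 6 libraries (black) and without calf 3 (green). Filled points were called, open points were not, and bars are medians. The medians are 2.45, 5.16, 2.67 and −0.20 with all libraries.

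Markers of the germ cell stages moved with the members. In the bulls, 9 of 9 round spermatid genes and 10 of 10 elongating spermatid genes were called higher, with median log2 fold changes of 5.50 and 7.36. Of the spermatocyte genes, 8 of 9 were called higher, with a median of 2.89 (7 of 9 without calf 3). Among all genes tested, 35.7% were called higher and 9.61% lower, and without calf 3 these shares were 37.9% and 13.6%. Spermatocyte genes summed to 23.2 and 30.6 in calves 1 and 2, 10.5 in calf 3 and 351 to 419 in the bulls, and elongating spermatid genes to 14.5, 15.8 and 11.4 in the calves and 14927 to 16526 in the bulls. Of the 9 round spermatid genes, ACRV1, ACR, SPACA4 and SUN5 were between 0 and 0.06 in each calf. The whole list summed to 5.78, 6.51 and 3.41 in calves 1 to 3, so its other genes made up most of that level. ACRV1, ACR, SPACA4 and SUN5, and the spermatocyte genes SPO11 and PIWIL1, were below 1 in each calf. They passed the filter only through the bulls, so they had to differ. Other genes of these lists, those of elongating spermatids among them, may have passed in the same way and were not counted. The numbers called in these lists were therefore partly fixed by the filter. The spermatogonial list moved both ways, with 2 of 7 genes called higher and 1 lower, the Sertoli cell list had 1 of 9 called higher and 0 lower (2 higher and 7 lower without calf 3), and the Leydig cell list had 0 of 6 called either way. The part of the cell composition in the members' differences was not tested.

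The 5 genes closest to the mean profile of the 7 CATSPER-named members were found by distance over the 6 libraries. For this, the log2(FPKM + 1) values of each gene were centred on their own mean. The profile averages whole gene rows with log2 fold changes from 0.97 (CATSPERD) to 3.66 (CATSPER3). The 5 genes were SPCS1 (distance 0.115), PPP6R1 (0.135), GGNBP2 (0.153), CRYZL1 (0.166) and PPEF1 (0.182). The CATSPER genes themselves were at 0.604 (CATSPER2) to 1.86 (CATSPER3). Since the 5 were picked as the closest of all genes with a symbol that were tested, this order is no result about the members. PPEF1 was 1.44, 1.70 and 1.67 in the calves and 9.29, 10.8 and 11.2 in the bulls. SPCS1, a subunit of the signal peptidase, was 8.33 to 10.3 in the calves and 43.4 to 47.1 in the bulls. Their log2 fold changes lay between 2.10 and 2.18, and the likeness is a description over 6 libraries of 2 groups.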

How the data were processed

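Total RNA of testes from 3 calves and 3 bulls was analysed (1 library per animal, groups from the sample labels). According to the Methods, the authors depleted ribosomal RNA, removed reads that matched it with Bowtie2, used TopHat2 for mapping and StringTie for the assembly of transcripts; the tool that made the deposited FPKM values of genes and transcripts is not given in the sources used here. Positions are those of the deposited tables: all 10 members overlapped the RefSeq interval of the same symbol in an ARS-UCD assembly, although the Methods name UMD. Genes with FPKM of at least 1 in at least 3 libraries were fitted with limma 3.58.1 (R 4.3.3) on log2(FPKM + 1) with a mean-variance trend. The 1 added to FPKM understates changes of low genes. The fit was tested on simulated data. Entries were counted as covering a transcript when they spanned at least 90% of its interval, had no antisense name and lay by at most 10% in another gene with a symbol. The members and the gene lists were chosen with earlier results of these data known; all members and list genes may be named. Alternatives were another pseudocount, filters, scalings, weights, a replicate block and leaving out each library.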

Additional observations from a re-analysis of the deposited data

How the results depend on the processing

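With FPKM of at least 1 required in at least 4 libraries, genes at or above that level in bulls alone or in calves alone were no longer tested. The calls were then 3 members, 2 CatSper associates, 1 sperm ion transport gene, 0 somatic calcium channels and 2 member transcripts. Over all genes they were 4280, compared with 8215. Array weights gave 4 somatic calcium channels. Leaving out 1 library at a time gave 8 to 9 members, 5 associates each time, 7 to 8 ion transport genes, 2 to 4 somatic channels and 11 to 12 member transcripts; the 4 somatic channels were those without calf 3. The replicate numbers did not pair the samples (correlations of deviations 0.0277, 0.0246 and 0.0341, although each of the 6 libraries correlated best with its own number), and the fit with a replicate block gave 8 members, 5 associates, 7 ion transport genes, 2 somatic channels and 12 member transcripts. Quantile normalization moved the median log2 fold change of all genes from 0.43 to −0.26. It moved their calls from 6474 higher and 1741 lower to 3827 and 4538. The member transcripts went from 12 higher and 0 lower to 7 and 2, beside 5018 and 5884 of all 23212 transcript entries. Scaling to genes with a symbol moved the median of all genes to 0.22. Of 155 refits of single members, 147 left direction and call as they were, 2 lost a call (CATSPER4 and CATSPERB, quantile normalization) and 6 gained one (CATSPERD under 5 settings, HVCN1 under quantile normalization), and no direction turned. With an adjusted p below 0.05 as the only criterion, the 10 members were all called, 9 higher and 1 lower.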
